A study of Homo sapiens with 38 samples.

Results

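Transcripts of sterol and fatty acid synthesis were followed through 35 genes, taken from the count table by their symbols. The list was chosen with earlier results of these data known, so shares of its members set against all genes are not independent of the data. All 35 were found among the 57133 genes of the table, and all 35 were among the 16674 genes that passed the filter on low counts and were tested. By role, 8 belong to the mevalonate pathway (AACS, ACAT2, HMGCS1, MVK, PMVK, MVD, IDI1 and FDPS) and 11 to the route from squalene to cholesterol (FDFT1, SQLE, LSS, CYP51A1, TM7SF2, MSMO1, NSDHL, HSD17B7, EBP, SC5D and DHCR7). A further 6 act in the control of this pathway or in sterol transport (INSIG1, INSIG2, SREBF1, SREBF2, SCAP and STARD4), 8 make, elongate or desaturate fatty acids (ACLY, ACACA, FASN, SCD, ELOVL6, FADS1, FADS2 and ACSS2), and 2 export cholesterol (ABCA1 and ABCG1).

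RNA was measured by 3′ tag sequencing in 38 libraries of Shef6, a human embryonic stem cell line, in 19 groups of 2. All cells came from a naive culture labelled serum-adapted, and naive cells, taken at day 0, were kept in PXGL, which contains inhibitors of MEK, tankyrase and PKC with LIF. From there they were moved to media without the MEK and PKC inhibitors on Geltrex, a basement membrane matrix, for capacitation, by which naive cells become able to differentiate. The first experiment held naive cells on a serum coating and on Geltrex, N2B27 basal medium and the commercial medium E8 at days 2, 3, 4, 6 and 8, and the commercial medium mTeSR at days 4, 6 and 8. The second experiment held naive cells on Geltrex and, at day 4, N2B27, N2B27 with the tankyrase inhibitor XAV939 (XAV), and N2B27 with XAV939, FGF2 and Activin A (FAX). Against naive cells, the change of medium and the exit from the naive state cannot be told apart, and all groups come from 1 cell line. The 2 libraries of a group are parallel libraries of 1 experiment, so p-values measure only the spread between these libraries, which may be technical.

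Cholesterol and fatty acids are both built from acetyl-CoA in the cytosol. SREBP transcription factors, encoded by SREBF1 and SREBF2, switch on the genes of both routes when membrane sterol is low. SCAP carries SREBP out of the endoplasmic reticulum when sterol is scarce, and INSIG1 and INSIG2 hold the complex back when it is plentiful. ABCA1 and ABCG1, which export cholesterol, are induced by LXR receptors that sense oxidised sterols, so their transcripts and those of the synthesis enzymes are known to respond to sterol in opposite directions.

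RefSeq promoter windows (GRCh38.p14, 250 bases before to 50 after a start of transcription) were matched by symbol for 30 of the 35 genes. ABCG1, ACAT2, FASN, FDFT1 and SQLE had none. SREBP and NF-Y are known to act together at genes of this pathway, and the windows were therefore searched on both strands for CCAAT, the core of the NF-Y site, for the E-box CACGTG, and for TCACNCCAC, one form of the sterol regulatory element bound by SREBP. CCAAT was present for 21 of the 30 genes, against 39.7% of all 27305 genes with a window, and members were not chosen by it. CACGTG was present for 5 genes (ABCA1, INSIG1, LSS, SC5D and SCAP), against 8.77% of all genes. TCACNCCAC was present for SREBF2 alone among the members, against 1.39% of all genes. A match is a string of letters in a window and not a site.

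Of these promoters, 6 are shown, because several of the results below turn on their genes. HMGCS1, MVD and INSIG1 were higher in one N2B27 culture than in the other and than with XAV939. So was DHCR7, which no longer passed whichever library was left out. SC5D was higher than in naive cells in every medium, and ABCA1 was lower. Each sequence gives the 250 bases before the start, 5′ to 3′ on the strand of the gene, with CCAAT on either strand (ATTGG on the other) and CACGTG in capitals. The windows are HMGCS1 chr5:43313413-43313662 (minus strand), MVD chr16:88663092-88663341 (minus strand), DHCR7 chr11:71448394-71448643 (minus strand), INSIG1 chr7:155297628-155297877 (plus strand), SC5D chr11:121292521-121292770 (plus strand) and ABCA1 chr9:104928156-104928405 (minus strand).
HMGCS1: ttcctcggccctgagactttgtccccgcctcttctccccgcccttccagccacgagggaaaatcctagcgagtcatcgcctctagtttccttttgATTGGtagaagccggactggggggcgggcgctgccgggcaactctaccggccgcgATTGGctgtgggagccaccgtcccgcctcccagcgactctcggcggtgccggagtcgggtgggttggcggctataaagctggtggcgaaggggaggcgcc
MVD: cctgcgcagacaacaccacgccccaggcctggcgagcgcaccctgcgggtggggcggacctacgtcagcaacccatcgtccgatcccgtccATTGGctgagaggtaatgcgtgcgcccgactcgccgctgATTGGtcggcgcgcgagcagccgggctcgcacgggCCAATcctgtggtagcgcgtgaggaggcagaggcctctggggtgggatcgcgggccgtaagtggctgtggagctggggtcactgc
DHCR7: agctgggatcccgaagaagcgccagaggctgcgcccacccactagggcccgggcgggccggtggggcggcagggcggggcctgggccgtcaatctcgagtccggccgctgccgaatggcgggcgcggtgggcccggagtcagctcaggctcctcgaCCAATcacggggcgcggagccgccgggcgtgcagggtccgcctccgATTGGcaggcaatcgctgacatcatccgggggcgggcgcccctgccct
INSIG1: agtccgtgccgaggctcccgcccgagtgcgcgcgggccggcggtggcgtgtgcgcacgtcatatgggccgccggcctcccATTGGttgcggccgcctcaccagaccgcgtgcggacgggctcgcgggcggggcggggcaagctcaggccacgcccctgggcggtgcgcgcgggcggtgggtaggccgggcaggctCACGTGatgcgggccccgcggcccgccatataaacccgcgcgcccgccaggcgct
SC5D: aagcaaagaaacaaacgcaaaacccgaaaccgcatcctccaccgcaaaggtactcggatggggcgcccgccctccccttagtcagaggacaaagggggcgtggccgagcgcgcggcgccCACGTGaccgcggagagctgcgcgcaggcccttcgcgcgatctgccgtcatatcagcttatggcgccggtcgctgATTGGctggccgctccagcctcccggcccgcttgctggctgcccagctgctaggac
ABCA1: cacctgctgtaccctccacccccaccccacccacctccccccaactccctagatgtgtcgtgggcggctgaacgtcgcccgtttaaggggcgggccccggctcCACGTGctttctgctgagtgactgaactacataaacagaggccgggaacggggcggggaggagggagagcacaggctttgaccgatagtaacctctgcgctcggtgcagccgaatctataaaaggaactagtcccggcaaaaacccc
MVD held 3 matches to CCAAT, HMGCS1 and DHCR7 2 each, INSIG1 and SC5D 1 each with 1 E-box, and ABCA1 an E-box without CCAAT.

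Total counts ran from 3038046 to 5612354 per library (median 4427277), and the members took 0.315 to 0.57% of the counts. The common biological coefficient of variation was 10.0%. Counts of ABCG1 ran from 0 to 15 and were at 3 or fewer, the floor used here, in 8 of the 38 libraries, so nothing is read from its values. No library of any other member was at the floor. Levels are in CPM, counts scaled to a library of common size, and are compared only within a gene or a summed list. Lists of 5 markers each were summed to check the labels. The sum for naive cells (KLF17, DPPA5, SUSD2, DNMT3L and TFCP2L1) was 1223 to 1232 CPM in the first experiment's naive cells on Geltrex and 359 to 389.6 CPM, 324 to 388 CPM and 318 to 346 CPM at day 8 in N2B27, E8 and mTeSR. The headers of the second experiment's naive libraries read day 4 while their labels give day 0, and these libraries stood with naive cells at 1044 to 1168 CPM and with THY1, a marker of the primed state, at 0. Markers of other lineages also moved with the medium, as described beside the results they touch. In bulk libraries fewer cells of a type and less RNA per cell cannot be told apart. FADS1 and FADS2 overlap on opposite strands (FADS1 chr11:61799627-61829318, FADS2 chr11:61792980-61867354, GRCh38), so part of the reads of one could be assigned to the other, and the counts of HSD17B7 may include those of its pseudogene copies.

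Against naive cells, SC5D and FADS2 rose and ABCA1 fell in every medium, and most other members were not called or were called at some times only. A gene was called when its adjusted p-value (edgeR's quasi-likelihood test, Benjamini-Hochberg over all tested genes) was under 0.05 and its change over 2-fold. The naive group pooled 6 libraries and is shared by all of these comparisons. At day 2, 2 members were called higher in N2B27 (background over all genes 9.86%) and 2 lower (6.30%), and 3 were higher in E8 (13.9%) and 2 lower (10.7%). At day 4, 12 were higher in N2B27 (12.5%) and 1 lower (5.96%), against 5 higher in E8 (13.6%) and 1 lower (7.21%). In mTeSR 4 were higher at that day (12.8%) and 1 lower (6.93%). At day 8, 4 were higher in N2B27 (16.9%) and 1 lower (7.03%), 5 were higher in E8 (18.2%) and 1 lower (9.24%), and 7 were higher in mTeSR (16.9%) and 2 lower (8.20%). Without replicate 2 of the second experiment's naive libraries, 8 members in place of 5 were called in mTeSR at day 4. The total for mTeSR at day 4 was also 8 against naive libraries of the same experiment, and that for N2B27 at day 8 was 8 in place of 5 against those on the serum coating. As a share of the 35 members, the calls ran below or near these backgrounds at most times. The exception was N2B27 at day 4, where 34.3% of the members were called higher.

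**Figure D1:**
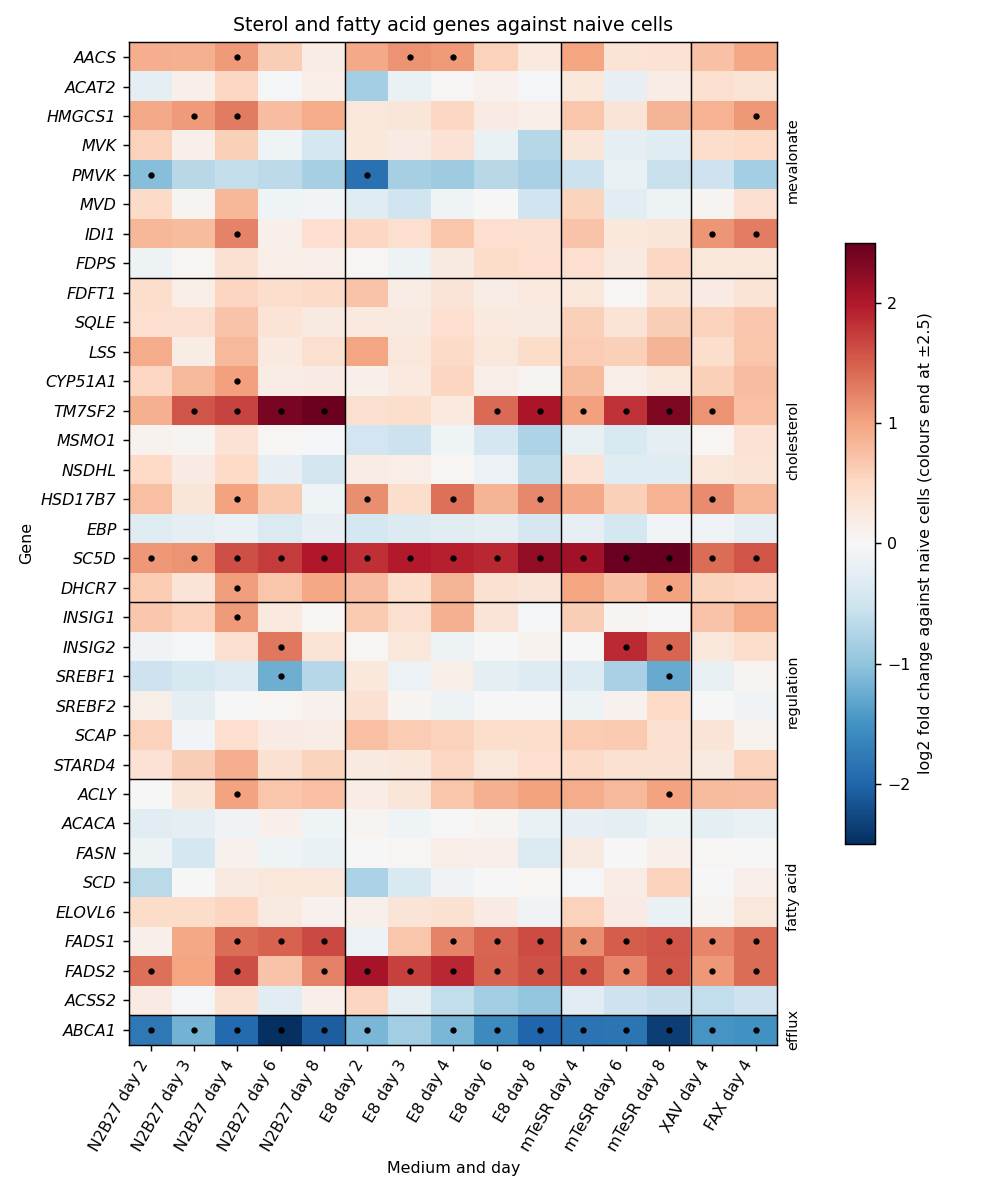
The heat map gives the log2 fold change of each gene (vertical axis, ABCG1 left out) against the 6 naive libraries for each medium and day (horizontal axis), with called genes marked. SC5D and FADS2 are higher and ABCA1 lower in every column, and the column of N2B27 at day 4 holds the most marks.

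The group of N2B27 at day 4 pooled 2 libraries of each experiment. With the first experiment alone, 4 members were higher (12.8% of all genes) and 1 lower (5.25%), namely FADS1, FADS2, SC5D, TM7SF2 and ABCA1. Other members called in the pooled group stayed under 2-fold there with an adjusted p under 0.05, as HMGCS1 (0.91 ± 0.09), AACS (0.90 ± 0.09), ACLY (0.92 ± 0.12), DHCR7 (0.86 ± 0.16), IDI1 (0.77 ± 0.15), CYP51A1 (0.64 ± 0.10) and INSIG1 (0.52 ± 0.09), while HSD17B7 had 0.75 ± 0.36 (adjusted p = 0.1). With the second alone, 14 were higher (12.8%) and 1 lower (9.00%). TM7SF2 and ACLY were not called there, with 0.91 ± 0.31 and 0.98 ± 0.15, against 2.17 ± 0.31 for TM7SF2 in the first experiment. Without replicate 1 of the second experiment's N2B27 libraries 8 members were called, and without replicate 2 the number was 7. ABCA1, FADS1, FADS2, HMGCS1, IDI1, SC5D and TM7SF2 stayed past the threshold whichever of the 10 libraries was left out.

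In the late steps of cholesterol synthesis, SC5D, the sterol C5 desaturase, rose in every medium and on every day tested. Its level was 15.1 to 27.3 CPM (median 18.1) in the naive libraries. At day 8 it was 76.9 and 75.3 CPM in N2B27, 85.1 and 91.1 CPM in E8 and 119 and 107 CPM in mTeSR. All 6 day 8 libraries thus lay above all naive libraries. The log2 fold change at day 8 was 2.01 ± 0.15 (± SE) in N2B27, 2.22 ± 0.15 in E8 and 2.58 ± 0.15 in mTeSR. The adjusted p was 3.08e-13, 1.59e-14 and 3.04e-16. It had already risen at day 2, by 1.09 ± 0.16 in N2B27 and 1.83 ± 0.16 in E8 on the log2 scale. TM7SF2, a sterol C14 reductase, was scarce in naive cells, at 0.885 to 4.44 CPM (median 1.39), and reached 12.1 and 10.7 CPM at day 8 in N2B27, 8.62 and 8.24 CPM in E8 and 12.8 and 8.12 CPM in mTeSR. Its log2 fold change at day 8 was 2.46 ± 0.33, 2.03 ± 0.35 and 2.34 ± 0.35 in that order. In E8 the value at day 4 was 0.25 ± 0.44 and not past the threshold (adjusted p = 0.689). From day 4 to day 8 in E8 TM7SF2 rose by 1.78 ± 0.31 on the log2 scale. The pooled naive libraries weigh on the day 4 value. On Geltrex the naive level was higher in the second experiment by 1.59 ± 0.40, and all E8 libraries are of the first.

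The other enzymes of this route moved less. DHCR7, which makes cholesterol from 7-dehydrocholesterol, was 11.7 to 21.5 CPM (median 17.0) in naive cells and 35 and 32.2 CPM at day 8 in mTeSR, a log2 fold change of 1.01 ± 0.19. In N2B27 it was 31.7 and 33.6 CPM at that day (0.97 ± 0.19, adjusted p = 6.61e-05, just under 2-fold), while in E8 it was 20 and 21.9 CPM, with a log2 fold change of 0.33 ± 0.20 that did not pass (adjusted p = 0.183). In mTeSR the call fell just under 2-fold without replicate 1 of mTeSR, without replicate 1 or 2 of naive Geltrex in the first experiment, or without replicate 2 of the serum coating. HSD17B7, the sterol 3-keto reductase, was called higher in E8 at days 2, 4 and 8 and in N2B27 at day 4 from few counts, with 1.57 to 4.21 CPM (median 2.83) in naive cells and 8.99 and 4.0 CPM at day 8 in E8. CYP51A1, the lanosterol demethylase, was called in N2B27 at day 4 against the pooled naive libraries (1.03 ± 0.11), and not with the first experiment alone, without replicate 1 or 2 of the second experiment's N2B27 libraries, or without replicate 2 of its naive libraries. MSMO1, the sterol C4 methyl oxidase, fell in E8 at day 8, with a log2 fold change of -0.78 ± 0.17 (adjusted p = 0.00029), less than 2-fold. NSDHL, the C4 decarboxylase, also fell there (-0.64 ± 0.23). FDFT1 and SQLE, which make and epoxidise squalene, LSS, which closes the sterol rings, and EBP, a sterol isomerase, were called over 2-fold in none of the comparisons of days 2, 4 and 8 with the pooled naive libraries.

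Among the mevalonate genes, HMGCS1, the cytosolic HMG-CoA synthase at the start of the pathway, was higher at day 8 in N2B27 and mTeSR, by less than 2-fold. It was 264 to 331 CPM (median 291) in naive libraries. In the first experiment it was 619 and 541 CPM at day 4 and 629 and 499 CPM at day 8 in N2B27, and 549 and 519 CPM at day 8 in mTeSR. In E8 it was 332 and 333 CPM at day 8. N2B27 and mTeSR thus stood well above the naive range, and E8 just above it. The log2 fold change at day 8 was 0.93 ± 0.13 in N2B27, 0.85 ± 0.13 in mTeSR and 0.17 ± 0.13 in E8, with adjusted p of 1.65e-07, 9.81e-07 and 0.295, and none of the 3 was called over 2-fold. In N2B27 at day 4 it was called (adjusted p = 1.24e-12). IDI1, the isopentenyl diphosphate isomerase, was called in N2B27 at day 4 with 1.24 ± 0.15, from 20.5 to 35.9 CPM (median 27.6) in naive cells to 55.8 and 49.5 CPM in the first experiment and 78.4 and 89.2 CPM in the second. AACS, which activates acetoacetate for lipid synthesis, was higher at day 4 than at day 8. It was 71.5 to 81.5 CPM (median 77.0) in naive cells, 157 and 163 CPM in E8 at day 4 and 86.4 and 95.1 CPM at day 8. PMVK, the phosphomevalonate kinase, was lower than in naive cells in all 8 comparisons of days 2, 4 and 8 (adjusted p under 0.05), at 14.7 to 23.9 CPM (median 19.2) in naive libraries and 5.66 and 4.59 CPM in E8 at day 2, its lowest level. The log2 fold change there was -1.87 ± 0.28, and at day 8 it was -0.83 ± 0.22 in N2B27, -0.81 ± 0.22 in E8 and -0.56 ± 0.22 in mTeSR. ACAT2, MVK, MVD and FDPS, which catalyse other steps from acetyl-CoA to farnesyl diphosphate, were called over 2-fold in none of these comparisons.

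Of the fatty acid genes, the desaturases FADS1 and FADS2, which introduce double bonds into polyunsaturated fatty acids, were called in every medium at days 4 and 8. FADS1 was 25.5 to 50.2 CPM (median 43.9) in naive cells and 134 and 124 CPM at day 8 in N2B27, 131 and 125 CPM in E8 and 139 and 107 CPM in mTeSR, and these 6 libraries all lay above the naive range. At day 2 it had not changed past the threshold (0.13 ± 0.15 in N2B27, adjusted p = 0.539). FADS2 came earlier, from 15.0 to 25.8 CPM (median 22.8) in naive cells to 50.2 and 63.4 CPM in N2B27 and 78.2 and 105 CPM in E8 at day 2, log2 fold changes of 1.37 ± 0.15 and 2.07 ± 0.15. ACLY, which supplies cytosolic acetyl-CoA from citrate, was 120.4 to 206 CPM (median 175) in naive cells and 344 and 344 CPM in mTeSR at day 8, where it was called at 1.00 ± 0.15. Values in N2B27 and E8 at that day were 0.74 ± 0.15 and 1.00 ± 0.14, both with adjusted p under 0.05 and just under or below 2-fold. FASN, ACACA, SCD and ELOVL6, the main chain of fatty acid synthesis, and ACSS2, which makes acetyl-CoA from acetate, were called over 2-fold in none of these comparisons.

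The transcript of the cholesterol exporter ABCA1 fell. It was 114 to 184 CPM (median 155) in naive cells. In N2B27 it was already 53.2 and 33.5 CPM at day 2 and stood at 40.1 and 31.8 CPM at day 8. At day 8 it was 40.5 and 35.1 CPM in E8 and 26.9 and 31.6 CPM in mTeSR. No day 8 library reached the lowest naive library. The log2 fold change at day 8 was -2.07 ± 0.22 in N2B27, -1.99 ± 0.22 in E8 and -2.36 ± 0.23 in mTeSR. ABCA1 was called lower at each of days 2, 4 and 8 in each medium sampled, with any 1 library left out as well.

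The regulators showed no common direction. INSIG2 was 4.44 to 10.8 CPM (median 7.42) in naive cells and 17.6 and 26.0 CPM in mTeSR at day 8 (1.46 ± 0.24, adjusted p = 4.98e-06), while SREBF1 fell there from 30.7 to 65.3 CPM (median 41.7) to 16.8 and 19.9 CPM (-1.27 ± 0.20). INSIG1 was called at day 4 in N2B27 (1.07 ± 0.13) and was back near the naive level at day 8 (0.05 ± 0.17 in N2B27, -0.05 ± 0.17 in E8, -0.01 ± 0.17 in mTeSR). SREBF2, SCAP and STARD4, the last a carrier of sterol between membranes, were called over 2-fold in none of these comparisons. Day 8 libraries also carried markers of lineages other than epiblast, most in N2B27. The summed mesoderm markers (TBXT, MIXL1, EOMES, LHX1 and PDGFRA, 5 of 5 detected) were 348 to 454 CPM there, 209 to 242 CPM in mTeSR and 51.1 to 53.4 CPM in E8, against 23.6 to 24.2 CPM in the first experiment's naive cells on Geltrex and 3.07 to 9.13 CPM in those of the second. Their part in the day 8 values was not tested.

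**Figure D2:**
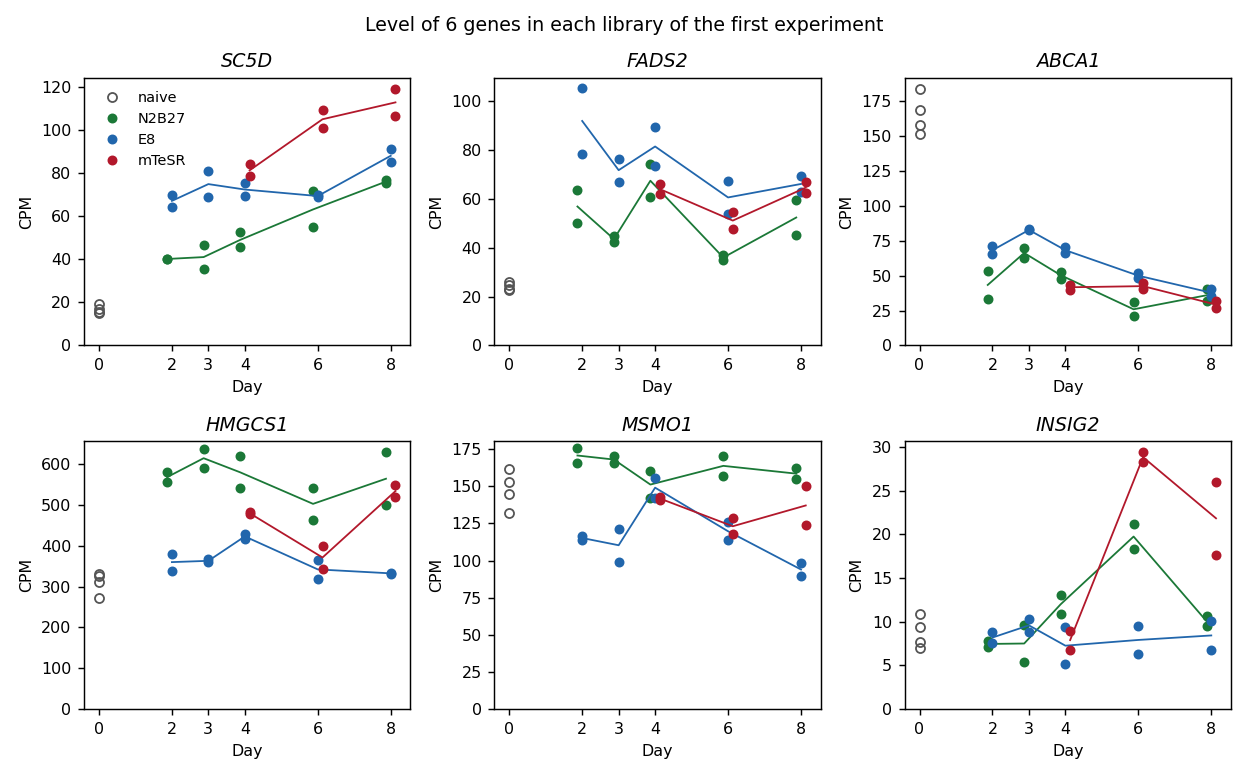
Each panel plots the level in CPM (vertical axis) against the day (horizontal axis) for 1 gene, with a point for each library of the first experiment and a line through the group means of each medium. HMGCS1 in E8 lies below N2B27 on all 5 days, SC5D lies above the naive libraries in all 3 media, and ABCA1 drops from the naive libraries at day 0.

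Between media on the same day few members differed over 2-fold. E8 differed from N2B27 over 2-fold on at least 1 of 5 days in 4 members (ACSS2, HSD17B7, INSIG2 and TM7SF2), against 15.2% of all genes. The count rested on single libraries: it was 2 without replicate 1 of E8 or of N2B27 at day 8, and 7 without replicate 1 of N2B27 at day 2 or replicate 2 of N2B27 at day 3. mTeSR differed from N2B27 in 1 (6.38% of all genes) and from E8 in 1 (5.63%), INSIG2 in both cases. The first of these counts was 0 without replicate 2 of mTeSR or replicate 1 of N2B27 at day 8 and 2 without replicate 1 of N2B27 at day 6, and the second was 2 without replicate 2 of mTeSR at day 8.

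Averaging the daily differences gives a finer comparison, in which a difference passed at an adjusted p under 0.05 whatever its size. Over days 2 to 8, 8 members were higher in E8 than in N2B27 (18.2% of all genes) and 9 were lower (19.4%). Over days 4 to 8, 5 were higher in mTeSR than in N2B27 (12.0%) and 4 lower (11.7%), and 7 were higher in mTeSR than in E8 (8.61%) and 3 lower (8.03%). The shares of the members lay near those of all genes, except for the 7 of the 35 that were higher in mTeSR than in E8, and the 3 comparisons share libraries. The median log2 difference of the members was -0.05 for E8 against N2B27, 0.03 for mTeSR against N2B27 and 0.08 for mTeSR against E8.

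**Figure D3:**
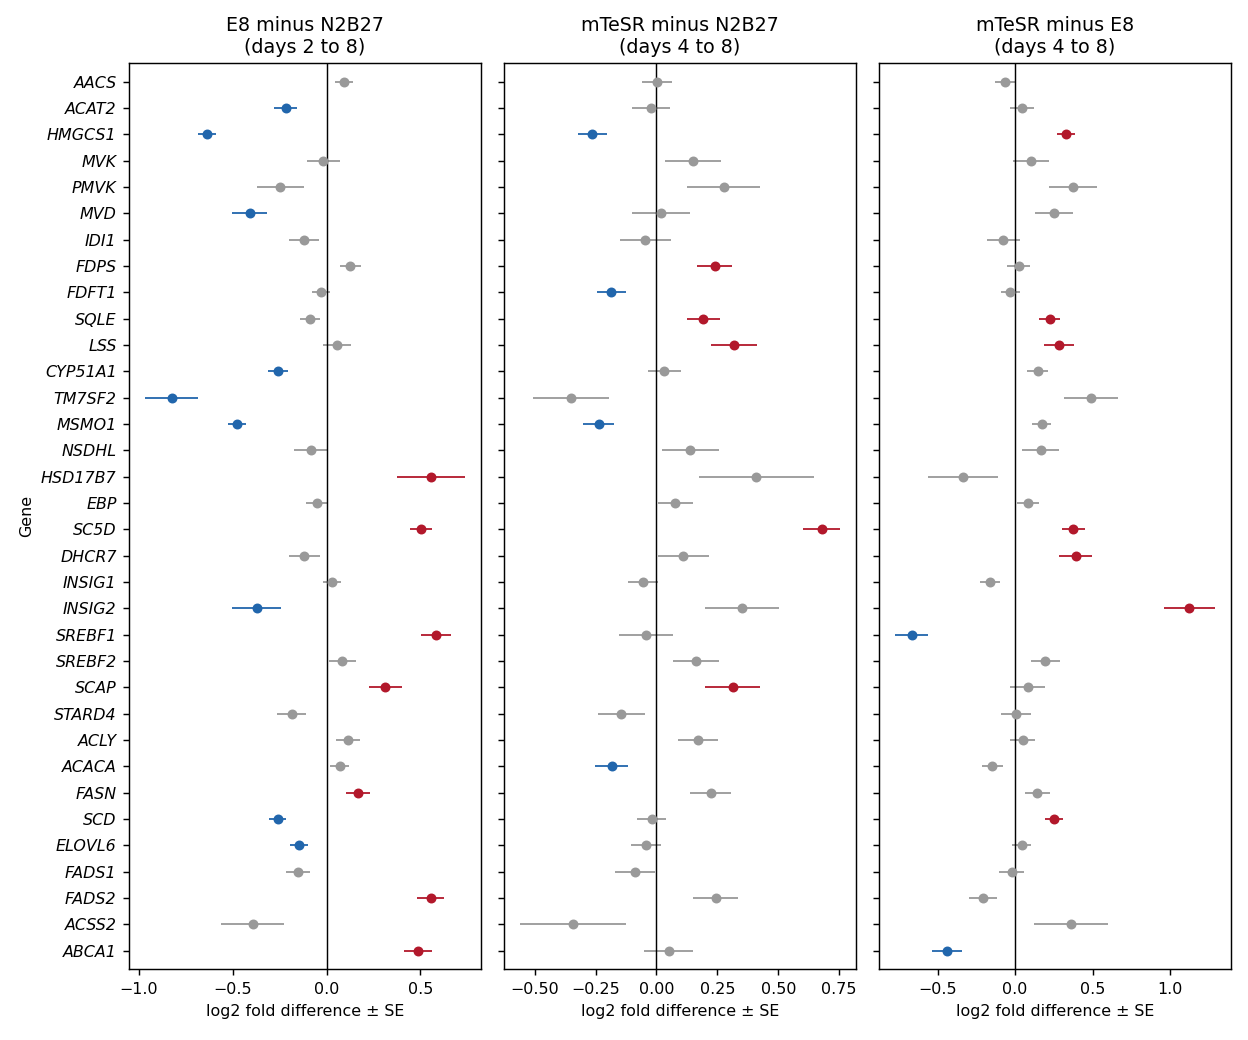
The panels plot the log2 difference between media averaged over days, with its SE (horizontal axis), for each gene (vertical axis, ABCG1 left out). HMGCS1, MSMO1 and TM7SF2 lie to the left for E8 against N2B27, SC5D lies to the right for all 3 pairs, and INSIG2 lies to the right for mTeSR against E8.

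HMGCS1 separated E8 from N2B27 on every day. At day 2 it was 556 and 580.2 CPM in N2B27 and 381 and 339 CPM in E8. At day 3 it was 637 and 591 CPM in N2B27 and 359 and 367 CPM in E8. Both N2B27 libraries lay above both E8 libraries on these days. At day 4 it was 619 and 541 CPM in N2B27 and 417 and 429 CPM in E8, and at day 6 it was 542 and 463 CPM in N2B27 and 319 and 366 CPM in E8. The same order held there and at day 8, with no overlap. The log2 difference, E8 minus N2B27, was -0.66 ± 0.11, -0.76 ± 0.11, -0.46 ± 0.10, -0.55 ± 0.11 and -0.76 ± 0.11 from the first sampled day to the last, each with an adjusted p under 0.05, and it averaged -0.64 ± 0.05 (adjusted p = 4.2e-12). mTeSR lay between, at -0.26 ± 0.06 against N2B27 and 0.33 ± 0.06 against E8.

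MSMO1 followed the same order between E8 and N2B27, except at day 4. At day 8 it was 162 and 155 CPM in N2B27, 150.4 and 124 CPM in mTeSR and 89.7 and 98.2 CPM in E8, and these libraries did not overlap between E8 and the others. At day 4 the same groups held 160.3 and 142 CPM, 141 and 143 CPM and 142 and 156 CPM. The averaged log2 difference was -0.48 ± 0.05 for E8 against N2B27 and -0.24 ± 0.06 for mTeSR against N2B27. TM7SF2 averaged -0.83 ± 0.14 in E8 against N2B27, over 2-fold at days 3 and 4, from counts near the low end of the members. MVD, the diphosphomevalonate decarboxylase, averaged -0.41 ± 0.09, CYP51A1 -0.26 ± 0.05, SCD -0.26 ± 0.05 and ACAT2, the cytosolic thiolase, -0.22 ± 0.06. These and HMGCS1, MSMO1 and TM7SF2 passed with each of the 20 libraries left out in turn. INSIG2 (-0.37 ± 0.13) and ELOVL6 (-0.15 ± 0.05) were also lower in E8 but did not pass without some libraries.

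SC5D went the other way and was higher in E8 and mTeSR than in N2B27. At day 2 it was 40.2 and 40.1 CPM in N2B27 and 64.4 and 69.9 CPM in E8, and at day 4 it was 52.5 and 45.5 CPM in N2B27, 75.6 and 69.2 CPM in E8 and 78.6 and 84.0 CPM in mTeSR. N2B27 was lowest on both days with no overlap. The averaged log2 difference was 0.50 ± 0.06 for E8 against N2B27, 0.68 ± 0.08 for mTeSR against N2B27 and 0.38 ± 0.07 for mTeSR against E8, with adjusted p of 8.57e-08, 6.08e-08 and 0.000581. FADS2 (0.55 ± 0.07), SREBF1 (0.58 ± 0.08), ABCA1 (0.49 ± 0.07) and SCAP (0.31 ± 0.09) were higher in E8 than in N2B27 and passed with each library left out. HSD17B7 (0.56 ± 0.18) and FASN (0.17 ± 0.06) were higher but did not pass in every case. ABCG1, another of the 8 genes higher in E8, rested on counts at or near the floor. Restricted to days 4, 6 and 8, a choice made after seeing the data, 11 of the 17 members that differed between E8 and N2B27 still passed and 6 did not. ACSS2 (-0.70 ± 0.22), DHCR7 (-0.28 ± 0.11), FDFT1 (-0.15 ± 0.06) and FDPS (0.22 ± 0.07) passed over these days only. The log2 difference was then -0.59 ± 0.06 for HMGCS1, 0.30 ± 0.08 for SC5D and 0.49 ± 0.10 for ABCA1, and for INSIG2 it was larger, at -0.77 ± 0.16. The 6 that did not pass were CYP51A1 (-0.11 ± 0.07), ACAT2 (-0.07 ± 0.08), MVD (-0.23 ± 0.12), ELOVL6 (-0.08 ± 0.06), SCAP (0.23 ± 0.11) and FASN (0.08 ± 0.08).

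mTeSR differed from E8 most in INSIG2 and SREBF1. INSIG2 was 29.4 and 28.2 CPM in mTeSR, 18.3 and 21.2 CPM in N2B27 and 6.28 and 9.56 CPM in E8 at day 6, and 17.6 and 26.0 CPM, 9.47 and 10.7 CPM and 6.74 and 10.1 CPM at day 8. At day 6 E8 lay apart from both other media. The averaged difference from E8 was 1.12 ± 0.16 (adjusted p = 9.74e-06). SREBF1, which encodes SREBP1, averaged -0.67 ± 0.11 and ABCA1 -0.44 ± 0.10, and the other lower gene was ABCG1, at or near the floor. DHCR7 (0.39 ± 0.11), LSS (0.28 ± 0.10), SCD (0.25 ± 0.06) and SQLE (0.22 ± 0.07) were higher in mTeSR than in E8. With each of the 12 libraries left out in turn SCD passed every time, DHCR7 in 10, SQLE in 7 and LSS in 3. Against N2B27, LSS (0.32 ± 0.10), SCAP (0.31 ± 0.11), FDPS (0.24 ± 0.07) and SQLE (0.19 ± 0.07) were higher in mTeSR, and FDFT1 (-0.19 ± 0.06) and ACACA (-0.18 ± 0.07) lower. The comparison of mTeSR with N2B27 rested on single libraries: 5 members passed without replicate 1 of N2B27 at day 4 or day 6 or without replicate 2 of mTeSR at day 4 or day 6, and HMGCS1, MSMO1 and SC5D were the 3 that passed with every library left out. Media also differed in their marker sums. The mesoderm sum was higher in N2B27 than in E8 without overlap on all 5 days. At day 4 it was 64.1 to 64.5 CPM in N2B27, 11.7 to 15.6 CPM in E8 and 16.7 to 24.4 CPM in mTeSR, and at day 6 it was 235 to 253 CPM, 53.5 to 56.3 CPM and 129 to 141 CPM. The primed sum (SALL2, ZIC2, CDH2, THY1 and DUSP6) was higher in N2B27 than in E8 without overlap at days 4, 6 and 8, at 649 to 739.6 CPM and 483 to 526 CPM at day 8, against 524 to 539.5 CPM in mTeSR. At day 8 the endoderm sum (SOX17, GATA4, GATA6, FOXA2 and APOA1) was 156 to 174 CPM in N2B27, 78.1 to 78.7 CPM in mTeSR and 13.2 to 17.4 CPM in E8, and that of trophectoderm or amnion (GATA3, CDX2, TFAP2A, HAND1 and ISL1) was 71.4 to 91.9 CPM, 12.9 to 17.6 CPM and 13.1 to 19.8 CPM. At day 3 the primed sum was higher in E8 (257.9 to 264 CPM) than in N2B27 (223 to 257.7 CPM). The naive sum was higher in N2B27 than in E8 without overlap at days 2, 4 and 6. That of trophectoderm or amnion was so at days 2, 3, 4 and 8. The endoderm sum was higher in N2B27 at days 3, 4, 6 and 8 and in E8 at day 2. The part of these markers in the differences between media was not tested.

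From day 4 to day 8, within a medium and the first experiment, more members fell than rose. In N2B27 2 rose (11.3% of all genes) and 5 fell (9.01%), in E8 2 rose (12.2%) and 12 fell (9.17%), and in mTeSR 6 rose (12.7%) and 9 fell (10.4%), at an adjusted p under 0.05 at any fold. For E8 the fallen members were 34.3% of the 35. AACS, ABCA1, CYP51A1, ELOVL6 and INSIG1 passed as lower in all 3 media and TM7SF2 as higher. INSIG1 went from 133 and 132 CPM to 70.1 and 69.7 CPM in E8, from 109 and 101 CPM to 76.9 and 72.6 CPM in N2B27 and from 114 and 107 CPM to 76.3 and 67.2 CPM in mTeSR. The 2 days did not overlap in any of the media. The log2 changes of INSIG1 were -0.93 ± 0.11, -0.49 ± 0.11 and -0.62 ± 0.11. For AACS they were -0.82 ± 0.11, -0.72 ± 0.11 and -0.63 ± 0.11 and for CYP51A1 -0.47 ± 0.12, -0.55 ± 0.11 and -0.51 ± 0.12, in the same order. These 3 genes passed with each of the 4 libraries left out in every medium. The total counts of members did not hold up as well. For E8, 14 fell to 9 without replicate 1 of day 4 and to 8 without replicate 2 of day 4 or replicate 1 of day 8, and for N2B27, 7 fell to 4 without replicate 1 of day 4.

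MVK, the mevalonate kinase, fell in E8 from 47.6 and 60.1 CPM to 21.5 and 29.7 CPM, a log2 change of -1.09 ± 0.20, the only fall of over 2-fold in that medium. In mTeSR the members that rose beside TM7SF2 were INSIG2 (1.46 ± 0.28), SCD (0.62 ± 0.10), SREBF2 (0.62 ± 0.16), SC5D (0.47 ± 0.13) and FADS1 (0.41 ± 0.14), while SREBF1 (-0.95 ± 0.20), MVD (-0.69 ± 0.21), NSDHL (-0.66 ± 0.20) and MVK (-0.60 ± 0.20) fell. Of the genes named here for mTeSR, only INSIG2, SCD and SREBF1 passed whichever library was left out. The remaining falls in E8 were those of MSMO1 (-0.67 ± 0.11), NSDHL (-0.70 ± 0.20), FASN (-0.53 ± 0.15), DHCR7 (-0.52 ± 0.19), SREBF1 (-0.47 ± 0.17) and HMGCS1 (-0.35 ± 0.11), and FADS1 rose there (0.40 ± 0.14). Among these E8 genes, MSMO1 alone passed whichever library was left out. Besides TM7SF2, SC5D rose in N2B27 (0.63 ± 0.13). Marker sums moved over these days as well. In N2B27 the mesoderm sum was 64.1 to 64.5 CPM at day 4 and 348 to 454 CPM at day 8. It was 16.7 to 24.4 CPM and 209 to 242 CPM in mTeSR, and 11.7 to 15.6 CPM and 51.1 to 53.4 CPM in E8. The endoderm and primed sums also rose and the naive sum fell in every medium. That of trophectoderm or amnion rose in N2B27 and fell in the others. Their part in these changes was not tested.

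Whether the course differed between media was tested as an interaction, the difference between media of the change from day 4 to day 8. It passed for 1 member between E8 and N2B27 (2.27% of all genes), 2 between mTeSR and N2B27 (2.40%) and 1 between mTeSR and E8 (1.58%). For MSMO1 the interaction was -0.73 ± 0.15 (adjusted p = 0.00428) for E8 against N2B27, with changes of -0.67 ± 0.11 in E8 and 0.07 ± 0.11 in N2B27, and 0.62 ± 0.15 (adjusted p = 0.0305) for mTeSR against E8. The first held with each of 8 libraries left out. For mTeSR against N2B27, INSIG2 gave 1.71 ± 0.39 (adjusted p = 0.00912) and SCD 0.55 ± 0.15 (adjusted p = 0.0357). This count of 2 was 0 without replicate 2 of N2B27 at day 4, replicate 1 of mTeSR at day 4 or replicate 2 of mTeSR at day 8. It was 1 without replicate 1 of N2B27 at day 4, replicate 2 of N2B27 at day 8 or replicate 1 of mTeSR at day 8. For mTeSR against E8 the count of 1 was 0 without replicate 2 of E8 at day 4, replicate 1 of E8 at day 8, either replicate of mTeSR at day 4 or replicate 1 of mTeSR at day 8, and 2 without replicate 2 of E8 at day 8.

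**Figure D4:**
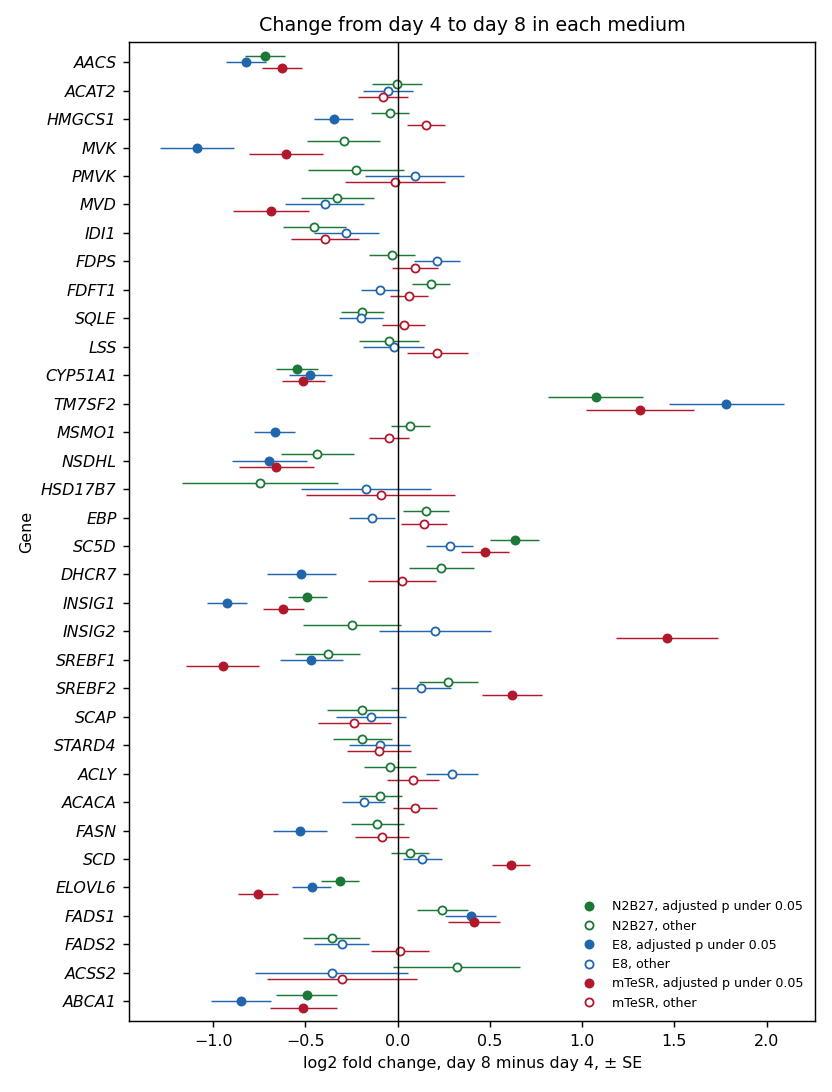
The plot gives the log2 fold change from day 4 to day 8 with its SE (horizontal axis) for each gene (vertical axis, ABCG1 left out) in N2B27, E8 and mTeSR. AACS, CYP51A1 and INSIG1 lie left of 0 and TM7SF2 right of 0 in all 3 media, and MSMO1 lies left of 0 by the most in E8.

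In the second experiment 12 of the 35 members were lower with XAV939 than in N2B27 alone, most of them sterol synthesis genes. With XAV, 12 members (34.3%) passed as lower at an adjusted p under 0.05 at any fold, against 1.20% of all genes. As higher 1 passed, against 0.138%. Of these members, only MVD and ACSS2 among the lower, and ABCA1, differed by over 2-fold. With FAX, 6 were lower (0.708%) and 1 higher (0.138%) by the same rule, none of them by over 2-fold. Both comparisons share the same 2 N2B27 libraries. The genes lower with XAV came from the mevalonate pathway (AACS, HMGCS1 and MVD), the cholesterol route (FDFT1, LSS, CYP51A1, MSMO1 and DHCR7), regulation and transport (INSIG1 and STARD4) and fatty acid synthesis (ELOVL6 and ACSS2), and ABCA1 was the gene that was higher. The median log2 difference was -0.64 over the 11 cholesterol genes and -0.46 over the 8 mevalonate genes, against 0.01 over all tested genes.

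HMGCS1 was 847 and 906 CPM in N2B27, 524 and 549 CPM with XAV and 604 and 652 CPM with FAX. INSIG1 was 187 and 211 CPM, 116 and 119.7 CPM and 141 and 133 CPM in the same order, and MVD 54.2 and 54.9 CPM, 21.9 and 25.9 CPM and 27 and 32.9 CPM. For all 3 genes both N2B27 libraries lay above the 4 others. The log2 difference of XAV from N2B27 was -0.71 ± 0.10 for HMGCS1, -0.76 ± 0.10 for INSIG1, -1.19 ± 0.19 for MVD, -0.67 ± 0.11 for CYP51A1 and -0.68 ± 0.10 for MSMO1, with adjusted p of 7.99e-05, 2.4e-05, 0.000236, 0.000375 and 0.000168. ABCA1 was 26.1 and 27.6 CPM in N2B27 and 57.4 and 51.0 CPM with XAV, with no overlap, and its log2 difference was 1.01 ± 0.18 with XAV and 0.97 ± 0.18 with FAX. These 6 genes passed for XAV with each of the 4 libraries left out. The whole count did not: it was 7 without replicate 2 of N2B27 or replicate 1 of XAV, and 8 without replicate 2 of XAV.

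With FAX the genes that passed as lower were CYP51A1 (-0.51 ± 0.11), DHCR7 (-0.82 ± 0.19), FDFT1 (-0.41 ± 0.10), HMGCS1 (-0.48 ± 0.10), INSIG1 (-0.54 ± 0.10) and MVD (-0.86 ± 0.19). This comparison depended on every library, with 2 members left without replicate 1 of FAX or of N2B27 and 1 without replicate 2 of either. MSMO1, which passed with XAV, was -0.37 ± 0.10 with FAX (adjusted p = 0.104), and the difference between XAV and FAX was not tested here. Markers of trophectoderm or amnion moved alongside, at 34.7 to 38.8 CPM in N2B27, 17.3 to 20.1 CPM with XAV and 26.5 to 31.1 CPM with FAX, with all 5 markers detected in each group. The sum of the naive markers was 627 to 647 CPM in N2B27, 693 to 734 CPM with XAV and 686 to 690.3 CPM with FAX, also without overlap between N2B27 and the others. The mesoderm sum was 37.0 to 46.9 CPM in N2B27 and 37.0 to 41.0 CPM with XAV, and higher with FAX at 52.7 to 58.7 CPM. The endoderm sum was under 4 CPM in all 3, and higher with FAX (2.84 to 3.57 CPM) than in N2B27 (2.38 to 2.61 CPM). The part of these lists in the result was not tested.

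The N2B27 libraries of the second experiment also differed from those of the first, with the same medium, day and matrix. At an adjusted p under 0.05 at any fold, 14 members were higher in the second experiment (1.78% of all genes). By this rule 1, ABCA1, was lower (2.09%). Only MVK differed by over 2-fold, with MVD just under. HMGCS1 was 619 and 541 CPM in the first experiment and 847 and 906 CPM in the second, a log2 difference of 0.60 ± 0.10. INSIG1 differed by 0.92 ± 0.10, MVK by 1.24 ± 0.19, MVD by 1.00 ± 0.19 and MSMO1 by 0.82 ± 0.10. These 5 genes passed with each of the 4 libraries left out, while the count of 15 was 5 without replicate 2 of the first experiment and 6 without replicate 2 of the second. XAV and FAX were not sampled in the first experiment, so whether their difference from N2B27 holds there is not known. Marker sums also moved between these N2B27 cultures, without overlap. The primed sum was 326 to 329 CPM in the first experiment and 256 to 278 CPM in the second. The mesoderm sum was 64.1 to 64.5 CPM in the first experiment and 37.0 to 46.9 CPM in the second, and the endoderm sum was 4.68 to 5.02 CPM and 2.38 to 2.61 CPM in that order. These 3 were lower in the second experiment. The naive sum was 611 to 618 CPM in the first experiment and 627 to 647 CPM in the second, and that of trophectoderm or amnion was 29.0 to 31.7 CPM and 34.7 to 38.8 CPM, both higher in the second. Their part in the difference was not tested. Across experiments, the level of HMGCS1 with XAV (524 and 549 CPM) overlapped with that of N2B27 in the first. The level of INSIG1 with XAV lay above both of those N2B27 libraries. Other members were not compared in this way.

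**Figure D5:**
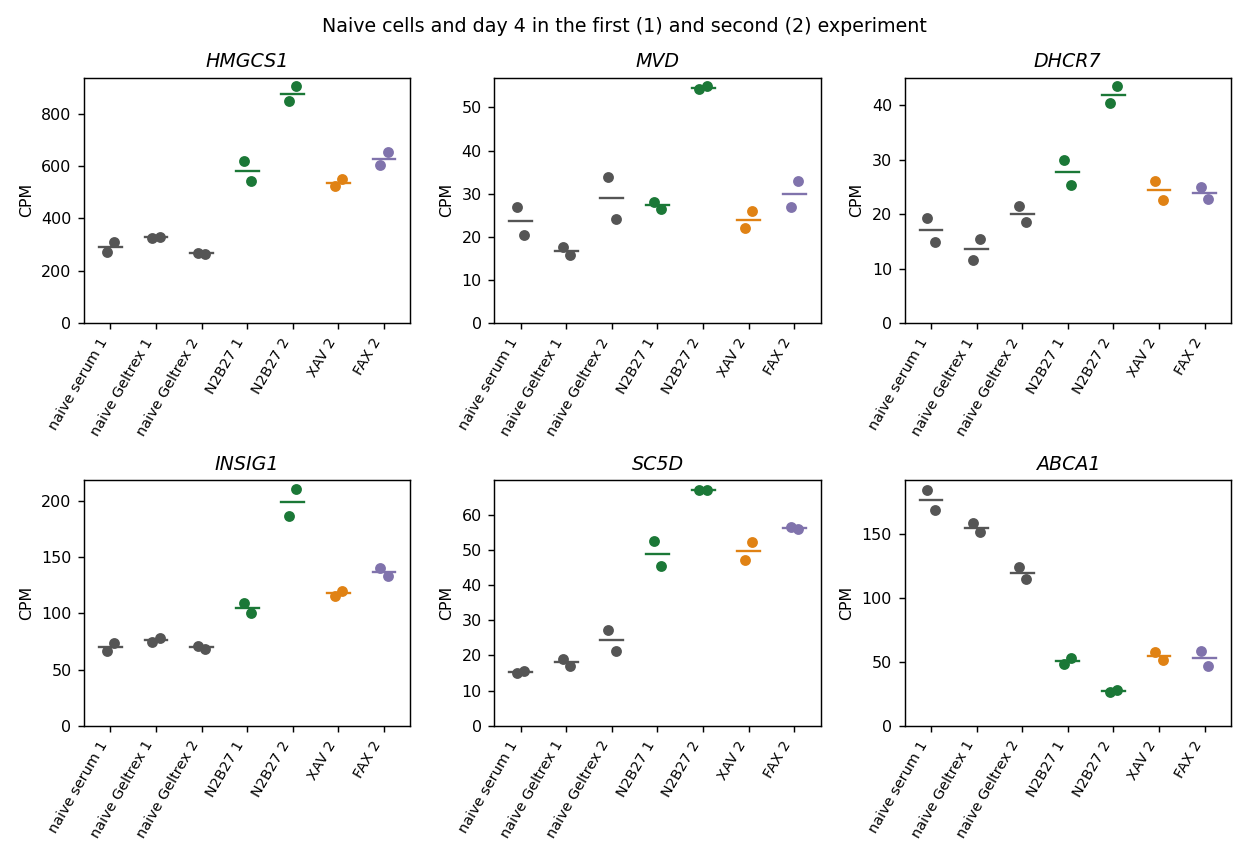
Each panel plots the level in CPM (vertical axis) of 1 gene in each library of naive cells and of day 4 cultures, with the number of the experiment in the group name (horizontal axis). The second experiment's N2B27 libraries hold the highest levels of HMGCS1 and INSIG1 of the groups plotted, and XAV and FAX lie below them.

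Naive cells on Geltrex differed between the experiments in fewer members, at an adjusted p under 0.05 at any fold. In the second, 6 were higher (7.35% of all genes) and 2 lower (7.86%). ELOVL6 (-0.53 ± 0.11) was lower with each library left out. CYP51A1 (-0.37 ± 0.12) was lower and MVD (0.78 ± 0.21), FDFT1 (0.40 ± 0.10), EBP (0.39 ± 0.12), TM7SF2 (1.59 ± 0.40) and ACSS2 (1.48 ± 0.35) higher, none of them with each library left out. The remaining gene of the 6 was ABCG1, whose counts are at or near the floor, and the count of 8 was 4 without replicate 1 and 2 without replicate 2 of the first experiment, and 1 without replicate 1 of the second. HMGCS1 and INSIG1 were not past the threshold (-0.30 ± 0.11 and -0.14 ± 0.11). The change from naive cells on Geltrex to N2B27 at day 4 was itself larger in the second experiment in 11 members, by a test of the difference. Over all genes 11.7% passed this test, counted in either direction. The 11 included genes whose naive level was lower in the second experiment. For ELOVL6 the N2B27 libraries themselves differed by 0.23 ± 0.10 (adjusted p = 0.231), less than the naive libraries did, and for IDI1 and LSS the naive difference was -0.57 ± 0.20 and -0.47 ± 0.21, neither past the threshold. Marker sums of the naive cells also differed without overlap. In the first experiment and the second the naive sum was 1223 to 1232 CPM and 1044 to 1168 CPM, the mesoderm sum 23.6 to 24.2 CPM and 3.07 to 9.13 CPM, and that of trophectoderm or amnion 17.0 to 17.3 CPM and 9.68 to 12.0 CPM. Their part was not tested. Between naive cells on Geltrex and on the serum coating, 0 members passed in edgeR (background 0.174%). An unadjusted p under 0.05 was found for 9 members, DESeq2 passed 3, and without replicate 2 of the serum coating edgeR passed 3.

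Other genes of lipid metabolism, from lists compiled for the same pathways, were counted at day 8 against naive cells with the 2-fold rule, by which 16.9% of all tested genes were higher and 7.03% lower in N2B27, 18.2% and 9.24% in E8, and 16.9% and 8.20% in mTeSR. Of 16 tested genes of sterol uptake, esterification and response, 0 were higher and 3 lower in N2B27, 0 and 4 in E8, and 0 and 3 in mTeSR. SOAT1, which esterifies cholesterol for storage, fell most, with log2 fold changes of -2.28 ± 0.21 in N2B27, -4.63 ± 0.27 in E8 and -3.16 ± 0.23 in mTeSR. NR1H2, which encodes an LXR receptor, also fell (-1.46 ± 0.41, -2.22 ± 0.46 and -1.64 ± 0.45). Of 18 tested further genes of fatty acid synthesis and handling, 3 were higher and 1 lower in N2B27, 5 and 2 in E8, and 3 and 2 in mTeSR. SCD5, another stearoyl-CoA desaturase, was called higher in all 3 media, from 0 to 2 counts in naive libraries, which are at the floor. Its counts at day 8 were 6 to 7 in the mTeSR libraries, 9 to 10 in those of E8 and 17 to 21 in those of N2B27, and no fold is given for it. SCD itself had log2 fold changes of 0.28 ± 0.11, 0.05 ± 0.11 and 0.57 ± 0.11. LPIN1, a phosphatidate phosphatase, fell (-1.50 ± 0.14, -2.23 ± 0.15 and -1.99 ± 0.15). Of 10 genes of fatty acid oxidation, 1 was higher and 1 lower in N2B27, 1 and 2 in E8, and 0 and 1 in mTeSR.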

How the data were processed

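RNA was measured by 3′ tag sequencing (QuantSeq) in 38 libraries of Shef6. The authors made the deposited raw gene counts with STAR 2.7.10a and Salmon 1.9.0 on hg38, after FastQC 0.11.9, through the nf-core workflow, and summed them to genes with no normalisation. The 3′ tags make counts largely independent of transcript length, but levels were compared only within a gene. Groups came from the sample labels.

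Tests were run with edgeR 4.0.16 (R 4.3.3). After filterByExpr 16674 genes remained. Scaling was by TMM, and the p-values of quasi-likelihood F-tests were adjusted by Benjamini-Hochberg over all of these genes. One fit with 16 levels pooled the 6 naive libraries, and a second with 19 groups of 2 gave all other comparisons. Levels are CPM, counts relative to the scaled library size, with log2 fold changes ± SE from the fit. A count of 3 or fewer was taken as the floor, which covers counting error only, and reads without molecular identifiers are not independent molecules. The scripts were tested on simulated counts. Total counts per library, 3038046 to 5612354, set the precision.

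The members and gene lists were chosen with earlier results of these data known. Named are the members called in a comparison, and of the other lipid genes the 4 with the largest change at day 8 among those called. Alternatives were RLE scaling, library totals, other filters, DESeq2 1.42.0, a replicate block, other naive controls, other samples in the fit and leaving out single libraries. Averaging E8 over days 4 to 8, splitting the experiments and counting without a fold threshold were chosen after seeing the data. Gene positions are from GENCODE release 44 and promoter windows from RefSeq.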

Additional observations from a re-analysis of the deposited data

Results flagged for a closer look

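The change from day 4 to day 8 differed between media in the test of the difference itself for 3 members. For MSMO1 the change in E8 minus that in N2B27 was -0.73 on the log2 scale, and the change in mTeSR minus that in E8 was 0.62. For mTeSR minus N2B27 the difference was 1.71 for INSIG2 and 0.55 for SCD. The first of the MSMO1 values passed with each of 8 libraries left out, and the others did not.

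The change from naive cells on Geltrex to N2B27 at day 4 differed between the experiments, second minus first, for 11 members. Among the mevalonate genes the log2 difference was 1.24 for IDI1, 1.00 for MVK, 0.90 for HMGCS1 and 0.77 for ACAT2. In the cholesterol route it was 1.12 for LSS, 1.02 for NSDHL, 0.90 for CYP51A1, 0.66 for SQLE and 0.55 for MSMO1. It was 1.06 for INSIG1 and 0.77 for ELOVL6. ACAT2, CYP51A1, ELOVL6, HMGCS1, IDI1, INSIG1 and LSS passed with each of the 8 libraries left out. No member had a library far from the others by Dixon's test, among the 6 naive libraries or the 4 of N2B27 at day 4.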

How the results depend on the processing

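Single members gave 211 results that were called, or that passed where no fold was asked. None of these changed direction under any setting. RLE scaling kept 208 and scaling by library totals 204, DESeq2 kept 194, a stricter filter (over 10 counts in 2 libraries) 209 and the absence of a filter 185. Over 171 pairs of groups the correlation of the deviations of replicate 1 ran from -0.35 to 0.26 (median 0.0031), with 7 pairs over 0.1. The median gives no sign of a pairing by replicate number common to all groups, but single pairs of groups may have shared a deviation. With the replicate number as a block 208 of the 211 results were kept, 3 were lost and no count moved by over 1.5 times (13 members were called for N2B27 at day 4 against naive cells with the block).

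Some counts of members moved by more, and the cause was not tested except where fewer libraries or other genes entered. Without a filter, the count was 2 in place of 1 for mTeSR against E8 on at least 1 day, 0 in place of 1 for the interaction of mTeSR against E8 and 2 in place of 0 between naive coatings. DESeq2 gave 2 in place of 4 for E8 against N2B27 on at least 1 day, 3 in place of 1 for that interaction and 3 in place of 0 between coatings. Against naive libraries of the same experiment mTeSR at day 4 had 8 calls in place of 5, and against those on serum coating N2B27 at day 8 had 8 in place of 5. With the first experiment only, N2B27 at day 4 had 5 in place of 13, and in a fit to that experiment's N2B27, E8 and mTeSR libraries mTeSR against N2B27 on average had 5 in place of 9.

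With 1 library left out at a time, where the comparison then rests on 1 library the spread is taken from the other groups. The counts against naive cells were 4 to 6 for 4, 7 to 14 for 13 and 5 to 6 for 5 in N2B27 at days 2, 4 and 8, 5 to 6 for 5, 6 to 7 for 6 and 6 to 7 for 6 in E8, and 4 to 8 for 5 and 8 to 9 for 9 in mTeSR at days 4 and 8. On at least 1 day they were 2 to 7 for 4 for E8 against N2B27, 0 to 2 for 1 for mTeSR against N2B27 and 1 to 2 for 1 for mTeSR against E8, and on average 13 to 21 for 17, 5 to 7 for 9 and 7 to 11 for 10. From day 4 to 8 they were 4 to 6 for 7 in N2B27, 8 to 10 for 14 in E8 and 10 to 10 for 15 in mTeSR, and for the interactions 1 to 1 for 1, 0 to 2 for 2 and 0 to 2 for 1. They were 7 to 10 for 13 for XAV and 1 to 2 for 7 for FAX against N2B27, 1 to 6 for 8 between naive cells and 5 to 11 for 15 between N2B27 cultures of the experiments, 0 to 3 for 0 between coatings, 5 to 6 for 5 and 14 to 15 for 15 for N2B27 at day 4 within each experiment, and 8 to 12 for 11 for the change between experiments.

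With 2 libraries a group and 1 cell line, depth limits ABCG1 most, and HSD17B7, TM7SF2, ACSS2, INSIG2 and PMVK are next lowest in level. XAV and FAX rest on 1 experiment whose N2B27 libraries differ from those of the other.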
